A study of Drosophila melanogaster with 4 samples.

Results

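The genes described here are p53, Xrp1 and 8 genes of the cell death pathway (Corp, rpr, hid, skl, Dark, Dronc, Drice and Diap1) in adult ovaries of Drosophila melanogaster. They were chosen by name, 10 genes of the 16345 that the NCBI RefSeq gene table paired with rows of the deposited table, and their 27 RefSeq transcript rows were summed per gene. 2 libraries of poly(A)-enriched RNA came from Control ovaries, the cross that the submitters name mat>Luc. The other 2, labelled Nup358GLKD, came from ovaries in which the nucleoporin gene Nup358 was knocked down in the germline. RNA for a library was pooled from 10 to 15 ovary pairs. No age, further allele or driver of the knockdown flies is given in the labels, and the knockdown reaches the germline while whole ovaries also hold somatic cells. A higher or lower value can therefore reflect the number of cells of a type or the RNA per cell, and these cannot be told apart.

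In flies, p53 is the transcription factor that acts downstream of the checkpoint kinase Chk2 (lok) when DNA is damaged, and in the germline it is also active during meiotic recombination. It can switch on the genes rpr, hid and skl, whose proteins bind Diap1 through their N-terminus. Diap1 is the ubiquitin ligase that keeps caspases in check. Once Diap1 is removed, the initiator caspase Dronc assembles on the scaffold protein Dark and cleaves effector caspases such as Drice. Xrp1 encodes a bZIP transcription factor of the p53 response and of cell competition, and Corp encodes a protein that binds p53 and holds it back.

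Library depth ranged from 58876800 to 60792292 expected counts. The Control libraries resembled each other more than the knockdown libraries did, with an SD of log2 differences over 10210 tested features of 0.198 against 0.668. Nup358 itself stood at 662 and 624 CPM (counts scaled to a common library size, corrected with TMM factors) in Control and at 283 and 151 CPM in Nup358GLKD replicates 1 and 2, which was 43.9% and 23.5% of the Control mean. The groups did not overlap, but edgeR's quasi-likelihood test did not call the difference (log2 change −1.57, SE 0.34, Benjamini-Hochberg adjusted p = 0.0525). It was called in DESeq2 (adjusted p = 0.000182) and in edgeR with total counts (0.0419), robust=FALSE (0.0486) or the replicate number as a block (0.0295). In the other alternative fits of summed rows with all 4 libraries it was not. There the adjusted p ran from 0.0505 in limma-voom to 0.121 in edgeR's test against a fold of 1.5. The germline markers osk, nanos, gcl, bcd, grk, bam, bgcn and orb were all detected in every library, and their summed level was 3205 and 3295 CPM in Control and 4440 and 4733 CPM in the knockdown. 1 of the 8 rose, the translation regulator gene orb, from 716 and 702 to 2131 and 1685 CPM (edgeR adjusted p = 0.0293), and 7 did not pass. The higher sum was mostly that of orb. The genes grk and bgcn were also higher without overlap, though neither passed. For grk the values were 27.1 and 27.2 CPM in Control and 70.5 and 45.0 CPM in the knockdown. Not every marker ran that way. The differentiation gene bam had 63.8 and 69.9 CPM in Control and 12.8 and 44.8 CPM in the knockdown, and gcl had 214 and 230 CPM against 101 and 208 CPM, both lower without overlap, while bcd overlapped with 109 and 124 CPM against 46.5 and 110.7 CPM. Muscle sheath markers stood out in 1 library. Their 6 genes summed to 287 and 225 CPM in Control, to 1229 CPM in Nup358GLKD replicate 1 and to 260.3 CPM in replicate 2. The 6 hemocyte markers were also highest in that library, with 107 and 104 CPM in Control and 346 and 136 CPM in the knockdown, while the defining genes He and NimC1 were at or near 0 in every library. The 9 follicle cell markers summed to 17771 and 18641 CPM in Control and to 10701 and 18777 CPM in the knockdown, a sum made up mostly of chorion, vitelline membrane and yolk protein genes. 1 of the 9 rose, the adhesion protein gene Fas3, from 46.5 and 46.7 to 157 and 146 CPM (edgeR adjusted p = 0.0275), 0 fell and 8 did not pass. Of those 8, tj, Yp1, slbo and cas were higher in both knockdown libraries and the chorion genes Cp36 and Cp38 lower in both. The 5 fat body markers summed to 450.5 and 312 CPM in Control and to 499 and 239.6 CPM in the knockdown. Most of that sum was FASN1, with 435 and 301 CPM in Control and 461 and 183 CPM in the knockdown. The 4 others (Lsp2, apolpp, Fbp2 and Lsp1beta) were higher in both knockdown libraries, Fbp2 and Lsp1beta at low levels. Only the storage protein gene Lsp2 rose (edgeR adjusted p = 0.028). It had under 1 CPM in each Control library and 16.2 and 17.9 CPM in the knockdown.

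Of the 10 genes, 5 rose in Nup358GLKD ovaries (Xrp1, Corp, rpr, Dark and Diap1), 0 fell, 4 did not pass (p53, hid, Dronc and Drice), and skl had too few counts to be tested. The rises ranged from 1.51-fold for Diap1 to about 25-fold for rpr. The threshold was an adjusted p under 0.05, at which 9.54% of all tested features rose and 9.02% fell, so 5 of 9 tested genes is a larger share than that background. The share is a description only, because the genes were picked with results of these data known. The median log2 change of the 9 genes was 1.09, beside 0.01 over all tested features. In 6 of the 9 each knockdown library exceeded each Control library, against 37.9% of all tested features, and in 2 of the 9 both lay below, against 39.8%. Nothing in the labels beyond the words biological repeat says that the libraries came from separate groups of flies, so p-values cover only the spread of these samples, which may be technical. No gene of the 10, and no feature at all, passed edgeR's adjusted threshold without Control replicate 1 or without Control replicate 2. At an unadjusted p under 0.05, 5 of the 9 still stood out in each of those fits, beside 15.9% and 14.3% of all features. The plot of levels by library shows the values that follow.

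**Figure D1:**
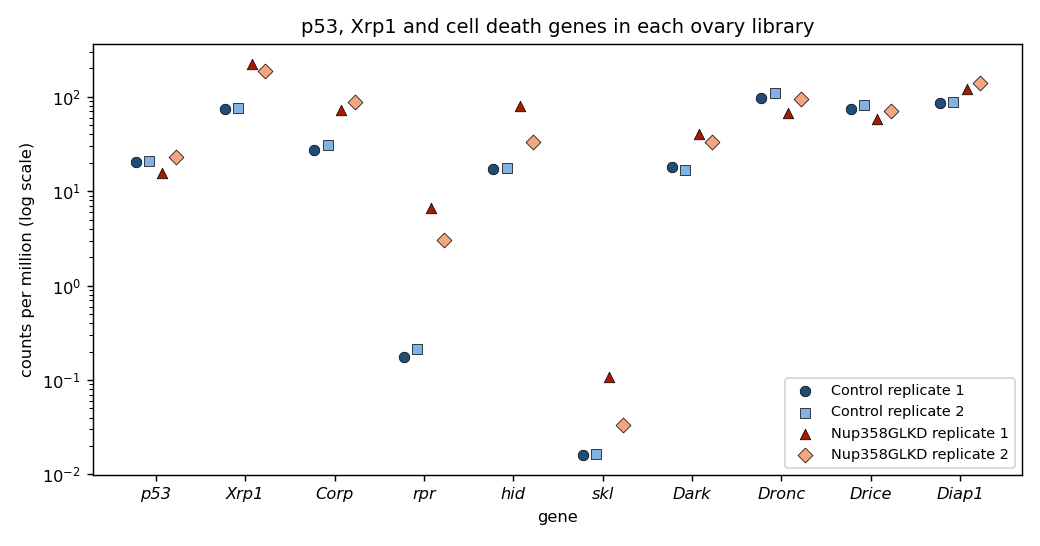
Level of each of the 10 genes in the 4 ovary libraries, in CPM on a log scale. Each point is 1 library. For Xrp1, Corp, rpr, hid, Dark and Diap1 both knockdown points lie above both Control points, Dronc and Drice lie a little lower in the knockdown, and p53 overlaps. The points of skl stand for 1 to 6 counts.

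Among the regulators, p53 RNA did not pass the test between the groups. It stood at 20.5 and 21.1 CPM in Control and at 15.7 and 22.9 CPM in Nup358GLKD replicates 1 and 2. The knockdown libraries lay on either side of the Control libraries, so that the groups overlapped. The log2 change was −0.11 (SE 0.23, adjusted p = 0.729 in edgeR's test), and its direction depended on scaling and on the library kept: it was 0.01 with upper-quartile factors, 0.03 over features with a mean of at least 5 CPM, 0.14 without Nup358GLKD replicate 1 and −0.44 without Nup358GLKD replicate 2. In the last of these fits, which called 75.1% of all features, p53 passed as lower (adjusted p = 0.00539), and in the fit without Nup358GLKD replicate 1 it did not (0.151).

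Xrp1 stood at 75.1 and 75.2 CPM in Control, against 225 and 189.7 CPM after knockdown. The Control libraries were nearly equal and both knockdown libraries were more than 2-fold above them. Its mean went from 75.2 ± 0.12 to 207 ± 25.0 CPM (SD, n = 2 per group), a 2.76-fold rise with a log2 change of 1.46, an SE of 0.13 and an adjusted p of 0.028 in edgeR's test. Xrp1 was the only one of the 10 to pass glmTreat, edgeR's test against a fold of 1.5 (adjusted p = 0.0491).

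Corp had 27.1 and 30.5 CPM in Control and 71.9 and 87.4 CPM in the knockdown. Both knockdown libraries lay well above both Control libraries, here with replicate 2 the higher one. The mean went from 28.8 ± 2.4 to 79.6 ± 10.9 CPM (SD, n = 2 per group), a 2.76-fold rise (log2 change 1.47, SE 0.16, edgeR adjusted p = 0.028). Over the Control mean, Nup358GLKD replicates 1 and 2 stood at 2.50-fold and 3.03-fold for Corp. For Xrp1 the order was the other way, with 3.0-fold in replicate 1 and 2.52-fold in replicate 2.

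Of the IAP antagonists rpr, hid and skl, rpr and skl were scarce in Control ovaries, while hid was at a level near that of Dark. The gene rpr had 11 and 13 counts in the Control libraries, which is 0.176 and 0.211 CPM, and 368 and 183 counts in the knockdown libraries, which is 6.61 and 3.04 CPM. Its RNA was thus near the detection limit in Control and clearly present in both knockdown libraries, though still scarce. The ratio of summed counts was 24.6, with an exact 95% counting interval of 16.4 to 38.7 that covers counting error only (log2 change 4.63, SE 0.61, edgeR adjusted p = 0.0317). The log2 change was 3.96 without Nup358GLKD replicate 1 and 5.05 without Nup358GLKD replicate 2.

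For hid the values were 17.2 and 17.6 CPM in Control and 79.1 and 33.3 CPM in the knockdown. Both knockdown libraries lay above Control, but replicate 1 held 2.38 times as much as replicate 2. With that spread the difference did not pass edgeR's test (log2 change 1.69, SE 0.46, adjusted p = 0.072), while it passed in DESeq2 (adjusted p = 0.00132), which called 37.9% of all features. Without Nup358GLKD replicate 1 the log2 change was 0.93 (adjusted p = 0.000421), and without Nup358GLKD replicate 2 it was 2.15 (adjusted p = 6.8e-05), in fits that called 62.0% and 75.1% of all features. Over all alternatives the adjusted p ran from 6.8e-05 to 0.34. Both rpr and hid were highest in Nup358GLKD replicate 1, the library with the highest muscle sheath and hemocyte marker levels and with the higher residual Nup358 of the pair. The part of these cells in the result was not tested. In replicate 2 rpr was 15.7-fold and hid 1.91-fold the Control mean. There the muscle markers summed to 260.3 CPM, within the Control range. The hemocyte markers summed to 136 CPM, above each Control library, and srp among them had 114 CPM, against 76.2 and 85.8 in Control. In replicate 2 Pxn (5.18 CPM) and Ppn (16.5 CPM) lay within the Control range, and Hml stood at 0.847 CPM against 0.575 and 0.553. The fat body gene Lsp2 stood at 17.9 CPM, above each Control library. The part of any of these cell types in the rpr and hid values of replicate 2 was not tested either.

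The third antagonist, skl, had 1 and 1 counts in Control and 6 and 2 counts in the knockdown. The ratio of 4.29 had a counting interval of 0.856 to 41.4, so that no difference was detectable at this depth. The related antagonist gene grim had 1 count in 1 Control library and 0 in the other 3, where 3 counts, the limit that a count of 0 allows, correspond to about 0.05 CPM. These 4 genes lie in 1 stretch of chromosome arm 3L, in the order hid, grim, rpr and skl and on the same strand, per the Ensembl BDGP6 annotation. Of 10 genes of that stretch found in the file, hid and rpr alone had enough counts to be tested. The 6 others besides the antagonists, among them CG7320 and CheA75a, had 0.054 CPM or less in every library.

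Of the apoptosome genes, Dark rose and Dronc did not pass. Dark, the Apaf-1 homologue, had 18.0 and 16.6 CPM in Control and 40.7 and 33.2 CPM in the knockdown. They were 2.35-fold and 1.92-fold above the Control mean. The mean went from 17.3 ± 1.0 to 37.0 ± 5.28 CPM (SD, n = 2 per group), a 2.14-fold rise (log2 change 1.09, SE 0.16, edgeR adjusted p = 0.0344). An antisense gene, asRNA:CR44390, overlaps exons of Dark. Its level was 4.85 and 5.33 CPM in Control against 6.83 and 7.63 CPM after knockdown, a difference that was not called (edgeR adjusted p = 0.13). Since the strand setting is not given, reads of the overlap cannot be told apart. Antisense genes also overlap exons of p53 (asRNA:CR46089, 812 bases) and Diap1 (asRNA:CR45889, 347 bases). Neither was found in the deposited table, so the same limit holds for p53 and Diap1.

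Dronc had 97.6 and 110.6 CPM in Control and 68.2 and 94.6 CPM in the knockdown. Both knockdown libraries were lower, replicate 2 by a small margin. The difference did not pass (log2 change −0.35, SE 0.20, edgeR adjusted p = 0.237). Within a library, Dark had 18.5 and 15.0 counts per 100 counts of Dronc in Control and 59.7 and 35.1 in the knockdown, a quantity in which gene length cancels between libraries.

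Drice, the main effector caspase, had 74.7 and 81.6 CPM in Control and 58.5 and 70.5 CPM in the knockdown. The knockdown libraries lay below Control with little distance, and the difference did not pass (log2 change −0.28, SE 0.15, edgeR adjusted p = 0.211). Without Nup358GLKD replicate 2, Dronc (log2 change −0.64, adjusted p = 0.00272) and Drice (−0.45, adjusted p = 0.00405) passed as lower, in a fit where 75.1% of all features passed. Without Nup358GLKD replicate 1 their log2 changes were −0.14 and −0.15 and neither passed (adjusted p = 0.206 and 0.114).

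Diap1, the inhibitor of both caspases, had 86.5 and 87.3 CPM in Control and 122 and 140.6 CPM in the knockdown. The groups did not overlap, but they were separated by less than for the other genes that rose. The mean went from 86.9 ± 0.589 to 131 ± 13.5 CPM (SD, n = 2 per group), a 1.51-fold rise (log2 change 0.59, SE 0.12, edgeR adjusted p = 0.0478). That call was also lost with total counts (adjusted p = 0.0749), without a filter on low counts (0.0736) and with the replicate number as a block (0.0539, in a fit that called 23.1% of all features). The counts of rpr, hid and skl together came to 20.1 and 20.4 per 100 counts of Diap1 in the Control libraries, to 70.6 in Nup358GLKD replicate 1 and to 25.8 in replicate 2. In replicate 1 this sum had thus gained much more than Diap1, and in replicate 2 only slightly more. Nearly all of these antagonist counts were those of hid, so the sum mostly follows hid. In replicate 2 rpr was 15.7-fold its Control mean and Diap1 1.62-fold.

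**Figure D2:**
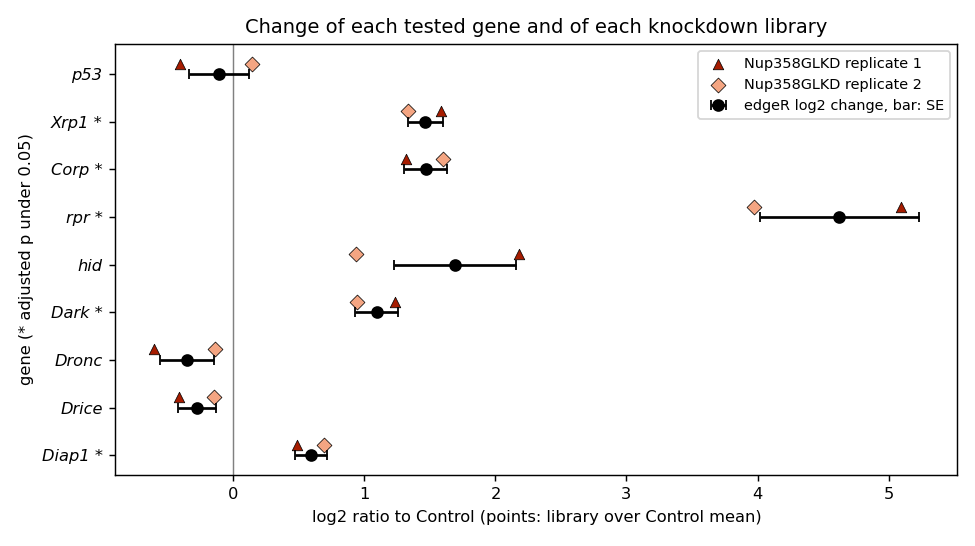
Log2 ratio of each tested gene in the knockdown to Control. Black points are edgeR's log2 changes with their SE, coloured points are each knockdown library over the Control mean, and asterisks mark an adjusted p under 0.05. The knockdown libraries lie close together for Xrp1, Corp, Dark and Diap1 and apart for rpr and hid, where replicate 1 is the higher one.

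Per kilobase of exon (lengths from the Ensembl BDGP6 annotation, all exons of a gene joined, which understates genes with many transcripts), the Control means ran from Dronc at 51.6 CPM per kb through Drice at 40.6, Diap1 at 27.7, Corp at 23.7, Xrp1 at 15.6, p53 at 9.73, hid at 4.33 and Dark at 3.54 to rpr at 0.215 and skl at 0.0117. The caspases, present as inactive precursors in healthy cells, were the most abundant of the 10 in Control, and the antagonists among the least. In the knockdown Corp was the highest, with 65.5 CPM per kb, followed by Xrp1 at 43.0, Diap1 at 41.7, Dronc at 40.4 and Drice at 33.5. The ranges of Xrp1, Diap1 and Dronc over the knockdown libraries overlapped, so their order is not resolved. Nor is that of Dronc (33.9 and 47.0) and Drice (30.4 and 36.6), which overlapped too. Below them came hid at 14.0, p53 at 9.02, Dark at 7.57, rpr at 5.36 and skl at 0.051 CPM per kb. Here the libraries of hid (19.7 and 8.28) and p53 (7.33 and 10.7) overlapped too, as did those of p53, Dark (8.33 and 6.8) and rpr (7.34 and 3.37). Those of hid and Dark also overlapped, by a small margin.

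Of the 27 transcript rows 24 had counts. No row with counts shared its values with another row of the table, as copies that split reads evenly would. RSEM divides reads among transcripts of a gene, so shares of a transcript depend on that division and are given without a test. For p53 the row NM_206545 took 96.9% and 97.7% of the gene's counts in Control and 87.7% and 83.6% in the knockdown. The row NM_001260323 took 0.802% and 0% in Control, 2.57% in Nup358GLKD replicate 1 and 12.9% in replicate 2, which is 178.4 expected counts. The main p53 row itself was lowest in Nup358GLKD replicate 1. It had 1245 and 1266 expected counts in Control and 764 and 1152 in the knockdown.

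Xrp1 kept its rows in the same order of size, though some shares shifted. Its main row NM_001275790 took 53.1% and 51.3% in Control and 57.1% and 55.3% in the knockdown, and NM_142504 took 28.7% and 28.7% against 22.5% and 21.0%. The small row NM_169840 went from 10.6 and 9.33 expected counts to 118 and 142. For Corp the minor row NM_001258649 took 5.93% and 7.32% in Control and 12.9% and 11.0% in the knockdown.

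The main row of Diap1, NM_079377, took 91.8% and 93.0% in Control and 87.6% and 79.3% in the knockdown. Its row NM_168644 held 243 and 235 expected counts in Control, 271 in Nup358GLKD replicate 1 and 1204 in replicate 2, so that it was far higher in replicate 2 than in the other 3 libraries. When rows were tested without summing, none of the rows of the 10 genes passed over 20393 rows, of which 1 passed in all. The lowest adjusted p among them was 0.0546, for the main Xrp1 row.

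**Figure D3:**
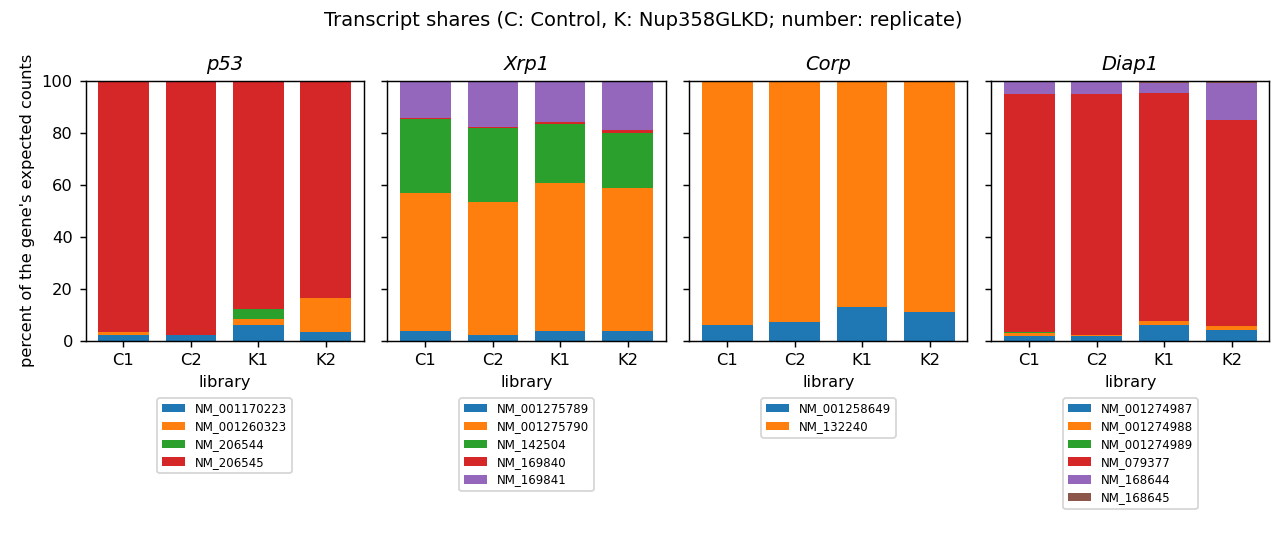
Share of each gene's expected counts taken by each RefSeq transcript row in the 4 libraries, in percent, for p53, Xrp1, Corp and Diap1. Bars are single libraries and colours are transcript rows. The main row of p53 and of Diap1 takes a smaller share in the knockdown libraries. For Xrp1 the main row takes a slightly larger share there and the row NM_142504 a smaller one.

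The related genes around this pathway were taken from 6 lists with 54 genes, of which 50 were tested. Of these 8 rose, 4 fell and 38 did not pass, and the median log2 change was −0.08. The share called, 24%, is near the 18.6% of all tested features that passed in either direction. As for the 10 genes, none passed without either Control library, and none of the 50 passed glmTreat.

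In the list of p53 and Xrp1 partners and reported targets, 3 of 10 rose, 0 fell and 7 did not pass, with a median log2 change of 0.26. Over all tested features 9.54% rose and 9.02% fell, shares that also stand beside the counts of the lists described below. In 5 of the 10 both knockdown libraries lay above Control, against 37.9% of all tested features. In 3 of the 10 both lay below, against 39.8%. These were RnrL (2.30-fold lower), Irbp (2.00-fold lower) and Nedd4, and none of them passed. Gadd45, a stress-inducible gene, had 6.66 and 9.36 CPM in Control and 39.6 and 34.6 CPM in the knockdown, a 4.63-fold rise (log2 change 2.21, SE 0.23, edgeR adjusted p = 0.028). The TNF ligand gene egr rose 2.65-fold, from 8.37 and 8.29 to 23.4 and 20.8 CPM (adjusted p = 0.028). The gene crc, the fly ATF4, rose 1.47-fold (adjusted p = 0.0415), a call that did not hold with the replicate block (0.0651), with total counts (0.0547) or without a filter (0.0574). Irbp18, which encodes the dimer partner of Xrp1, showed 10.1 and 10.8 CPM in Control against 12.8 and 14.1 CPM after knockdown, a difference that was not called (adjusted p = 0.157).

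Upstream of p53, none of the 7 genes of damage signalling rose, 2 fell and 5 did not pass, with a median log2 change of −0.58. Of all tested features 9.02% fell. In 6 of the 7 genes both knockdown libraries lay below both Control libraries, against 39.8% of all tested features. The nuclease gene mre11 fell 2.93-fold, from 51.6 and 52.2 to 14.2 and 21.3 CPM (log2 change −1.55, SE 0.24, edgeR adjusted p = 0.0357). The ATM kinase gene tefu fell 1.99-fold (adjusted p = 0.047), but not without a filter (0.0529) or over features with a mean of at least 5 CPM (0.0511). The p53-activating kinase gene lok had 429 and 450.2 CPM in Control and 378 and 601 CPM in the knockdown, where the libraries lay on either side of Control (adjusted p = 0.656).

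Of 4 tested genes among the other IAP antagonists and IAP proteins, 1 fell, 0 rose and 3 did not pass, with a median log2 change of −0.42. The one that fell was HtrA2, a mitochondrial protease gene, 1.6-fold lower (adjusted p = 0.0442). Its call was lost with the replicate block (0.0597), with upper-quartile factors (0.0518) and without a filter (0.0527). Of 7 tested other caspases and regulators, 2 rose, 0 fell and 5 did not pass, with a median of 0.04. The caspase gene Damm had 12 counts in the Control pair and 126 in the knockdown pair. Their ratio was 11.3 (counting interval 6.22 to 22.4), and edgeR's log2 change was 3.48 (adjusted p = 0.0399). Like rpr, it was scarce in all libraries, with 1.46 CPM at most. The Bcl-2 family gene Buffy rose 1.98-fold, from 4.85 and 4.78 to 10.5 and 8.64 CPM (adjusted p = 0.0478), and that call was also lost with total counts (0.0526), with the replicate block (0.0631), with legacy=TRUE (0.051) and when no filter was applied (0.0605). The effector caspase gene Dcp-1, which acts beside Drice in dying egg chambers, had 77.6 and 76.1 CPM in Control and 84.2 and 74.0 CPM in the knockdown, which overlapped (adjusted p = 0.801).

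Genes for engulfing dead cells and clearing nurse cells showed 2 rises and 0 falls among 10 tested, 8 that did not pass and a median log2 change of 0.43. Rac2, a small GTPase gene, rose 1.72-fold, from 45.8 and 45.7 to 79.0 and 78.7 CPM (log2 change 0.79, SE 0.11, edgeR adjusted p = 0.0317), with hardly any spread within the groups. The gene mbc, a Rac activator, rose 2.04-fold, a call (adjusted p = 0.0439) that was lost without a filter (0.051). The engulfment receptor gene drpr showed 126 and 125 CPM in Control against 282 and 189 CPM after knockdown. It did not pass in edgeR (log2 change 0.90, adjusted p = 0.064), whereas it passed in DESeq2 (0.005). Among the 12 autophagy genes there was 1 rise and 1 fall, the other 10 did not pass, with a median of −0.14. Atg8a, the ubiquitin-like protein of the autophagosome, rose 1.62-fold (adjusted p = 0.0377, but 0.0503 with total counts and 0.0515 without a filter), and Atg17, of the Atg1 kinase complex, fell 1.53-fold (adjusted p = 0.0356).

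**Figure D4:**
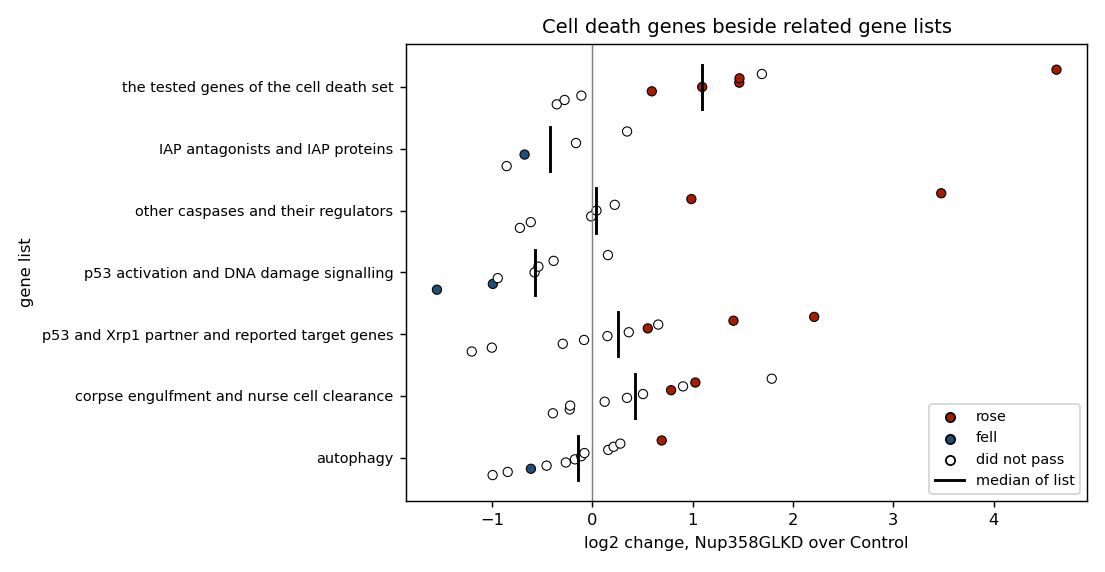
Log2 change of each tested gene in the 6 related lists and among the 9 tested cell death genes. Each point is 1 gene, filled where its adjusted p was under 0.05, and vertical bars are list medians. The median of the cell death genes is 1.09, and the list medians run from −0.58 to 0.43.

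The genes whose log2 ratios over the 4 libraries lay nearest to those of Xrp1, among 7062 genes with a mean of at least 5 CPM, were CG11791, fng and be, at Euclidean distances of 0.0497, 0.0682 and 0.0753. For example, fng had 14.4 and 14.0 CPM in Control and 44.5 and 37.6 CPM in the knockdown. Nearest to p53 were CG18549, Klc and CG2126, at 0.0387, 0.0436 and 0.0478. With 4 libraries such likeness says only that the values run alike.

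**Figure D5:**
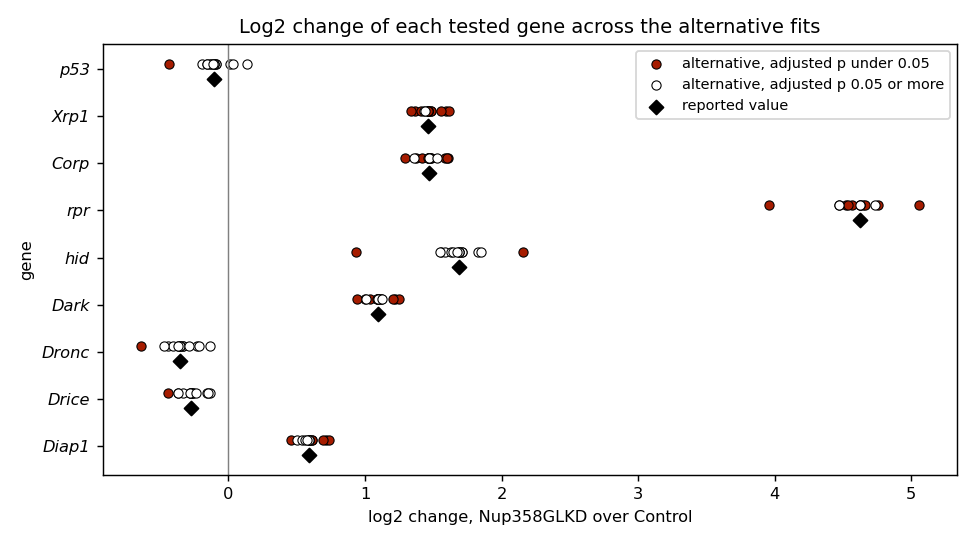
Log2 change of each tested gene in the reported fit (diamonds) and in each alternative fit (circles, filled where the adjusted p was under 0.05). Xrp1, Corp, rpr, hid, Dark and Diap1 stay above 0 and Dronc and Drice below 0 in the alternatives plotted, p53 lies on either side of 0, and hid and rpr spread most.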

How the data were processed

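RNA-seq of poly(A)-enriched ovary RNA, 2 Control and 2 Nup358GLKD libraries, was grouped by the labels. The deposited table holds expected counts per RefSeq transcript, transposon family and piRNA cluster, per its file header. Bowtie2, RSEM and build dm3 are named in the submitters' processing notes, while their versions, the strand setting and any filter are not given in the sources used. Accessions of 33997 of 34437 RefSeq rows matched the RefSeq gene table (Release 6, used for names), rows were summed per gene and rounded, and 440 stayed as they were. edgeR 4.0.16 in R 4.3.3 (glmQLFit, robust=TRUE, legacy=FALSE; TMM; filterByExpr with minimum count 10 and total 15) compared the groups, with Benjamini-Hochberg adjustment over 10210 features and 0.05 as threshold. SEs come from the F statistic. CPM use TMM-scaled sizes, and log2 values for distances used a pseudocount of 0.5 CPM. Counting intervals are Clopper-Pearson. The code was tested on simulated data. The Control replicates were not 1 library deposited again (chi-square of their counts per degree of freedom 16.4).

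The genes, lists and naming rule (up to 3 passing genes with the smallest p per list, plus grim, Dcp-1, Irbp18, lok and drpr, and the 3 genes nearest to Xrp1 and to p53) were chosen with earlier results of these data known. The isoform rows, antisense genes, marker genes, genes of the 3L stretch and RnrL, Irbp and Nedd4 are named beyond it. Alternatives were DESeq2 1.42.0, limma-voom (limma 3.58.1), scaling by RLE, upper-quartile factors or total counts, robust=FALSE, legacy=TRUE, other filters, glmTreat, a replicate block, leaving out each library, and unsummed rows.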

Additional observations from a re-analysis of the deposited data

How the results depend on the processing

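The 10-gene count of 5 calls stayed between 4 and 6 in the alternatives other than glmTreat (1), unsummed rows (0) and leaving out 1 library (0 to 9). Calls over all features, 1895, were 3873 in DESeq2, 189 with glmTreat, 1 for unsummed rows and 0 to 7989 without 1 library. Calls in the related lists, 12, were 23 in DESeq2, 6 without a filter, 0 with glmTreat, 0 for unsummed rows and 0 to 44 without 1 library. Without either Control library the remaining one was assumed to vary like the knockdown pair, and 1716 and 1543 features had an unadjusted p under 0.05. The log2 change of p53 turned from −0.11 to 0.0104 with upper-quartile factors, 0.0308 at a mean of at least 5 CPM and −0.438 to 0.138 without 1 library, and the cause was not tested. The first 2 settings shifted all log2 changes by a median of 0.12 and 0.15. The other tested genes of the 10 kept their direction in each alternative. Replicate numbers are shared by the groups, and replicate differences correlated across features at 0.224, but with 2 pairs the numbers do not show a pairing. With the replicate block 2360 features, 5 of the 10 genes and 17 list genes passed: hid was gained (0.0482) and Diap1 lost (0.0539). Near-zero Control counts limit rpr, skl and grim.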
